A study of Homo sapiens with 22 samples.

Results

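The antisense strand of 1561 protein-coding genes carried 200 or more reads in total over 12 RNA immunoprecipitation sequencing (RIP-seq) libraries of prostate cancer cell lines, out of 15637 coding genes with such a row (9.98%). A row here is the count of uniquely mapped reads on the strand opposite to a RefSeq transcript, over the whole span of that transcript. The 1561 rows, called members below, were the antisense rows with an mRNA identifier, taken once per gene symbol. Members were chosen by their summed read count, so their abundance is a description and not a result, and this choice favours rows with many reads in the deeper PSF-RIP libraries. The same choice admits rows that reach the limit through some of the lines only. The last rows inside the limit, 10 of them including PDE9A, had 200 reads, and the first outside, 6 including IL17D, had 199. By the coordinates of the deposited transcript rows, 888 members (56.9%) overlapped another RefSeq gene on that strand by at least 1 base, and 673 (43.1%) did not.

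Cells of 3 human prostate cancer lines were used. LNCaP responds to androgen, 22Rv1 can grow without it, and LTAD cells were kept in medium whose serum had been stripped of steroids. Each line received ethanol (vehicle) or 10 nM dihydrotestosterone (DHT), the strongest natural androgen, for 24 h after 3 days in 2.5% stripped serum. For each line and treatment, 1 input library (total RNA of the lysate) and 1 PSF-RIP library (RNA recovered with antibodies to the protein PSF) was sequenced, giving 6 input and 6 PSF-RIP libraries. The labels do not say that libraries came from separate cultures, so a p-value reflects only the variation among the 12 libraries. Counts are given below in the order LNCaP, 22Rv1, LTAD, each with vehicle before DHT.

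Antisense reads over a gene can have several sources. They can belong to a separate noncoding RNA, to a neighbouring gene that is transcribed towards or into the locus, or to a processed pseudogene, an intronless copy of another gene's mRNA that was inserted into an intron. A nuclear copy of mitochondrial DNA can carry them too. PSF, the product of SFPQ, is a nuclear RNA- and DNA-binding protein of paraspeckles that takes part in splicing and in transcriptional repression, and CTBP1-AS, an androgen-induced antisense RNA of the corepressor gene CTBP1, is known as one of its partners in prostate cancer cells.

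Several of the members with the most reads held such copies, and their sequences show how close the copies are to the genes they came from. The lines below give hg19 bases 5′ to 3′ on the antisense strand of the member, from the GRCh37 genome. Capitals in the first pair mark the 9 bases of 150 at which the antisense strand of PCBD2 (chr5:134263566-134263715, minus strand) and the mitochondrial gene MT-ND4 (chrM:10771-10920) differ. In the next lines capitals mark bases that differ from the closest coding transcript: 2 of 120 for RPL32P18 (chr7:44507640-44507759, plus strand), 1 for RPL4P4 (chr3:185135865-185135984, minus) and 1 for MPRIPP1 (chr3:44621863-44621982, minus).
PCBD2 antisense: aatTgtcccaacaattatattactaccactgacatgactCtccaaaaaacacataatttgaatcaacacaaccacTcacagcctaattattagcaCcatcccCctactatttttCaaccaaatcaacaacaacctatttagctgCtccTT
MT-ND4: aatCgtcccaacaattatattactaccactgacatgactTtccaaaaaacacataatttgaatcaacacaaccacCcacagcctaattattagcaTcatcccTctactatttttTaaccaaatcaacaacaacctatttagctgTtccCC
RPL32P18 (NUDCD3 antisense): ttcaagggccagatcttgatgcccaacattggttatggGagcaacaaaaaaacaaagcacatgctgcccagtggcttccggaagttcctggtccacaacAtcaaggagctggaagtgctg
RPL4P4 (MAP3K13 antisense): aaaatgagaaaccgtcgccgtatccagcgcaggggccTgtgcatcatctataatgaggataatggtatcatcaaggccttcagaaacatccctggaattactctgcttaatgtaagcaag
MPRIPP1 (ZKSCAN7 antisense): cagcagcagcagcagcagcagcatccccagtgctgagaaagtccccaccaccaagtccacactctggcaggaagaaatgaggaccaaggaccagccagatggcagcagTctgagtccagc
The last sequence shown is the window of 250 bases before the annotated start of CTBP1-AS (chr4:1203658-1203907, plus strand), printed because the antisense strand of CTBP1 had the largest DHT response relative to its sense strand. The androgen response half-site AGAACA, searched on both strands, was not among its letters. By the same search 13.9% of 38690 windows of this length before GENCODE coding and long noncoding gene starts held the half-site. The half-site followed after 3 bases by its reverse complement was held by 0.0129%.
CTBP1-AS promoter: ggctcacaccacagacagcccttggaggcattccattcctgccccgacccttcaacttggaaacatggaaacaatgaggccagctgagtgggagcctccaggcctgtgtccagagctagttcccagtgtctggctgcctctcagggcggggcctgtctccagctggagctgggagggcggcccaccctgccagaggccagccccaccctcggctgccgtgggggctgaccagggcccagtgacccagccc

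The inputs held 1073228 to 3014049 mapped reads and the PSF-RIP libraries 4641602 to 10439461. Members took 2.15% to 2.57% of mapped reads in the inputs and 2.61% to 2.73% in PSF-RIP. The strands were well separated: over 30 highly expressed genes, antisense reads were 0.165% to 0.276% of sense reads per library, with 10 antisense against 68910 sense reads at ACTB. Among the 30, KRT8 and KRT18 overlap on opposite strands and held 879 and 120 antisense reads, 15.0% and 2.65% of their sense reads. Part of that range thus counts reads of an overlapping gene. The luminal marker HOXB13 was present in all 12 libraries (347 to 4713 reads), KLK3 ranged from 2 to 3809 reads, and of the stromal and leukocyte markers COL1A2 and CD3E were at 0 throughout and PTPRC reached 2 reads, while CD68 had 4 to 102, VIM reached 733 and COL1A1 reached 323. DCN (6 to 23 reads) and HBA2 (12 to 34) were read in each 22Rv1 library and nowhere else beyond 1 read, and the part of these markers in the 22Rv1 comparisons was not tested. In such bulk libraries, fewer cells making an RNA and less RNA per cell cannot be told apart.

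Members had a median of 480 reads over the 12 libraries, and the most, 19973, lay over SNX22. The median span was 36.2 kb, from 0.785 kb to 2320.9 kb, and 11 spans exceeded 1 Mb; the other 14076 coding rows had a median span of 30.0 kb and a median of 9 reads. The antisense strand had more reads than the sense exons of the same gene at 609 members, of which 394 were among those with another gene there (44.4%) and 215 among those without (31.9%), and 70 had no sense exon read. Because spans overlap, 57 members shared bases with another member, so the 1561 rows stood for 1527 separate loci. An antisense row covers introns while a sense row covers exons, so these are comparisons of reads and not of level per length.

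Among the 888 members with a RefSeq gene on the antisense strand, such genes covered a median of 9.74% of the row, introns included. In 717 of the 888 (80.7%), the other gene's own row held at least 1 read for every 2 in the antisense row, and in 57 it held fewer than 1 for every 10. The share of such overlaps was 56.9% in members and 15.9% in the other coding rows. Of the 673 members with no RefSeq gene there, the GENCODE annotation placed a coding gene on that strand in 181, a long noncoding RNA in 235, a ribosomal protein pseudogene in 29, another pseudogene in 77, a mitochondrial pseudogene in 4, a small or other RNA in 19 and no gene in 128. A RefSeq gene of the same strand ended within 10 kb upstream of the row in 323 of the 673 (48.0%), against 25.7% of 11844 other rows without an overlapping gene.

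The 6 most abundant members with an overlapping gene lay opposite genes of high expression. Over SNX22 (chr15:64443916-64449680), a sorting nexin gene, the antisense strand held 488, 526, 1594, 1454, 314 and 575 reads in the inputs and 882, 986, 5565, 4092, 1470 and 2027 in PSF-RIP. PPIB, the cyclophilin of the endoplasmic reticulum on that strand, had 25393 exonic reads in all, and SNX22 itself 392. The 22Rv1 libraries were the highest within each assay. RUVBL1 antisense, 18001 reads, lay opposite SEC61A1, a subunit of the protein translocation channel. The row of FAM69A, 14040 reads, lay opposite RPL5, a ribosomal protein gene. NBPF20 (10781 reads, PDE4DIP and other genes), SRP19 (10048 reads, REEP5) and DSE (9696 reads, TSPYL1) followed.

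Of the 12 most abundant members with no RefSeq gene on the antisense strand, DLG2 (chr11:83166056-85338314), a synaptic scaffold gene, had 14484 antisense and 282 sense reads. Its antisense counts were 1368, 1330, 1775, 1616, 1144 and 1311 in the inputs and 593, 760, 1508, 1290, 812 and 977 in PSF-RIP, so the shallower inputs held the larger counts in each of the 6 pairs. PCBD2, NUDCD3 and MAP3K13 held the copies shown above. ZBTB45, which encodes a zinc finger protein, had 9810 antisense reads with no GENCODE gene on that strand. MXRA8, a matrix remodelling gene, had 5765, SPON2, a secreted matrix protein gene next to CTBP1, had 4611, MIA3, an exporter of collagen from the endoplasmic reticulum, had 3917, KCNAB1, a potassium channel subunit gene with no sense read, had 3391, and WDR24 had 3384.

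**Figure D1:**
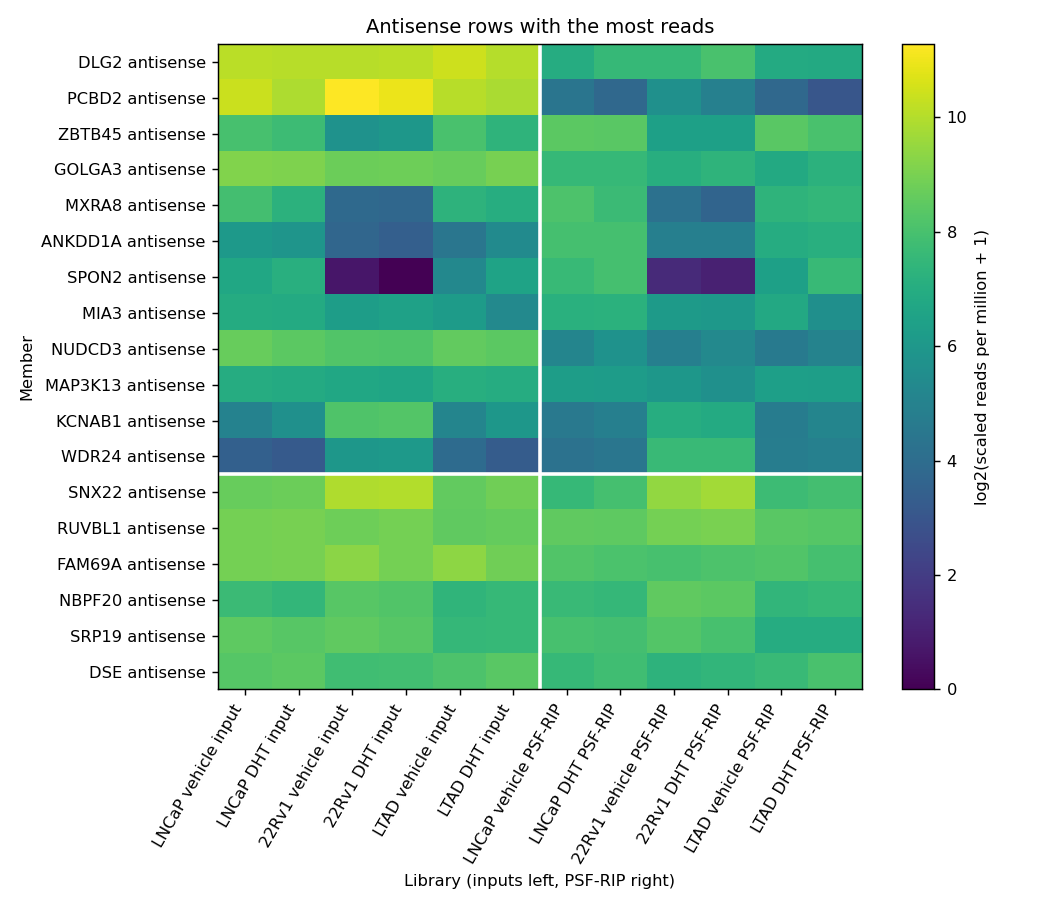
Antisense counts as scaled CPM, shown as log2 of the value plus 1, in each of the 12 libraries for the 12 most abundant members without a RefSeq gene on the antisense strand (above the white line) and the 6 most abundant with one (below). Brighter cells are higher: PCBD2, DLG2 and NUDCD3 are brighter in all 6 inputs than in all 6 PSF-RIP libraries, and SPON2 and MXRA8 are dark in the 22Rv1 libraries of both assays.

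The first comparison asks which antisense strands came down with PSF. In PSF-RIP 361 members stood above input and 325 below (edgeR's quasi-likelihood test, adjusted p under 0.05), 43.9% in all. Over the 2534 antisense rows of coding genes tested, members included, 17.5% were higher and 21% lower, together 38.5%, and over all 16546 rows of both strands 53.9% were called in either direction. The median log2 difference, given below as log2 PSF-RIP over input, was 0.09 in members, 0.02 in all coding antisense rows and 0.05 in all rows. With scaling factors from the antisense rows alone the members split into 446 higher and 275 lower, and the median moved by 0.10. Without the 22Rv1 libraries 231 were higher and 281 lower. Members with and without an overlapping RefSeq gene were alike in their medians, 0.09 and 0.10, with 222 higher and 180 lower against 139 higher and 145 lower.

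The members without a RefSeq gene on the antisense strand were also counted by what GENCODE placed there. Of the 128 members with no annotated gene there, 42 were higher and 19 lower, with a median of 0.34. Long noncoding RNAs (235 members) had 47 higher and 54 lower, median 0.09, and GENCODE coding genes (181 members) 37 higher and 25 lower, median 0.13. Of the 29 members with a ribosomal protein pseudogene, 0 were higher and 14 lower, median -0.40, 16 of the 29 differed at an unadjusted p under 0.05 by edgeR, and DESeq2 also gave 0 higher and 14 lower. Other pseudogenes (77 members) had 8 higher and 28 lower, median -0.24, and of the 4 mitochondrial pseudogenes 3 were lower and 1 higher. Where a gene of the same strand ended within 10 kb upstream, 83 of 323 were higher and 52 lower (median 0.19), and elsewhere 56 of 350 were higher and 93 lower (median 0.01). These are counts beside the 17.5% and 21% of all coding antisense rows, and differences between the classes were not tested. The shares moved with the read limit. Over all rows of at least 100 summed reads 18.9% were higher and 19.0% lower, and over those of at least 500, 31.0% and 23.7%. Members were chosen by sums in which the deeper PSF-RIP libraries weigh more, and the part of that choice in these counts was not tested.

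**Figure D2:**
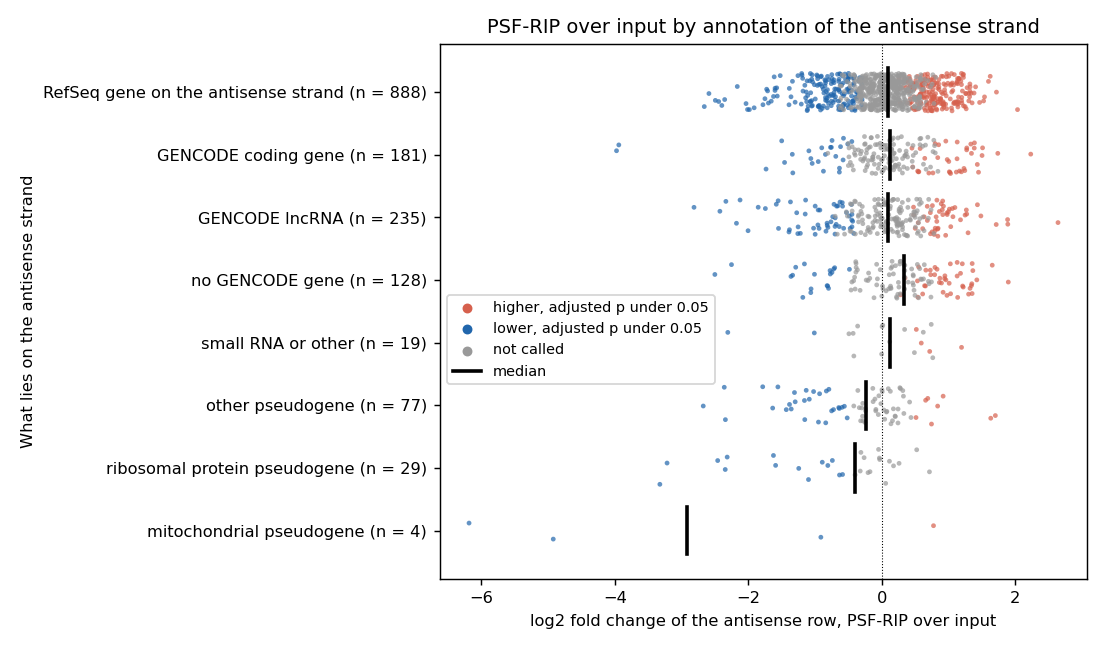
Log2 fold change of each member between PSF-RIP and input (x axis) by annotation of the antisense strand (y axis, number of members in brackets). Each point is 1 member, coloured where the adjusted p was under 0.05, and the bars are medians, which run from 0.34 where GENCODE lists no gene down to -0.40 for ribosomal protein pseudogenes and -2.92 for the 4 mitochondrial pseudogenes.

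The member furthest below input was PCBD2 (chr5:134240810-134298336, minus strand), whose sense product is a cofactor of the transcription factor HNF1. Its antisense strand held 1597, 1161, 4093, 2904, 907 and 1181 reads in the inputs and 93, 53, 391, 143, 90 and 60 in PSF-RIP. Every input was above every PSF-RIP library although the inputs were the shallower, and the log2 difference was -6.19 ± 0.14 (SE, 6 libraries per assay, edgeR adjusted p = 8.0e-18). A stretch of 5219 bases in this row (chr5:134258999-134264217, 9.07% of the row) was 94.06% identical to bases 10269 to 15487 of the mitochondrial genome. Most coding genes in or across that stretch were also far below input: MT-ND4 was at -6.84 ± 0.14, MT-ND4L at -6.81, MT-ND3 at -5.95, MT-CYB at -5.52 and MT-ND5 at -5.12. MT-ND6, which is encoded on the other strand there, was at -1.91. The sense exons of PCBD2 were at -1.34. The files give 1 count per row, so where in the row the reads lie is not known, and how many of them match the mitochondrial genome equally well was not tested. DYNC2H1, a cytoplasmic dynein gene with a mitochondrial pseudogene on its antisense strand, was at -4.92 ± 0.26 on 308 reads. Together the 4 members of this class took 0.0702% to 0.140% of mapped reads in the inputs and 0.00327% to 0.00519% in PSF-RIP. A search of all members against the mitochondrial genome (100 or more aligned bases at 80% identity or more) matched PCBD2 but not DYNC2H1 or the other two members of this class. It also placed a match on the antisense strand of FRMD6, ZNF571 and ZNF540, which have a RefSeq gene there. Those were at -0.33, -1.14 and -0.24, of which ZNF571 passed the threshold. TACR1, with a match on the opposite strand, was higher in PSF-RIP by 1.18.

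Ribosomal protein pseudogenes gave the next group. NUDCD3 (chr7:44421965-44530385, plus strand), a gene for a dynein-associated chaperone factor, had 496, 423, 481, 422, 320 and 447 antisense reads in the inputs and 161, 210, 227, 188, 164 and 275 in PSF-RIP. The groups did not overlap, with the inputs higher, and the difference was -3.33 ± 0.13 (edgeR adjusted p = 2.5e-14). Its pseudogene RPL32P18 is 98.3% identical to RPL32, whose mRNA was at -2.98 ± 0.09, while the sense exons of NUDCD3 were at 0.53. In ZYG11B the row with RPS13P2 was at -3.22 and its parent RPS13 at -3.02. For GOLGA3, a Golgi protein gene, counts were 685, 670, 701, 631, 336 and 634 in the inputs and 890, 742, 1051, 779, 791 and 1305 in PSF-RIP. These rise less than the depth does, and the scaled difference was -1.62 ± 0.09. MAP3K13, a kinase gene, was at -0.74 ± 0.08 and RPL4, the parent of RPL4P4, at -0.87, whereas the sense exons of MAP3K13 were at -1.89. SMOC1 (-0.81) stood beside RPL7A (-0.79). These pairs are among the closest. Over the 24 members with a tested ribosomal protein parent, r between row and parent was 0.43 and the median gap 0.42, and in 8 of the 24 the gap was above 1. DLG2 was at -2.81 ± 0.16 with RPL9 at -0.29 (88.8% identity), CECR1 at -0.21 with RPL32 at -2.98 (90.6%), CAMTA1 at 0.48 with RPL37 at -2.97 (89.2%) and PPP2R5A at 0.52 with RPL23A at -1.24 (95.9%).

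Among copies of other mRNAs, some rows lay near their parents, in both directions, and those named here were chosen as examples. ZKSCAN7, a zinc finger gene whose antisense strand holds MPRIPP1, had 27, 23, 22, 25, 21 and 37 reads in the inputs and 144, 173, 265, 215, 356 and 489 in PSF-RIP. It was higher in PSF-RIP by 1.07, and MPRIP, which encodes a myosin phosphatase partner, by 1.12. FMN2 (0.76) stood beside the proteasome gene PSMD2 (0.75), RAB3GAP2 (-0.56) beside MORF4L1 (-0.58) and ADRA1B (-0.45) beside GAPDH (-0.45). Others lay far from them. VPS13B was at -3.98 with the parent MSL3 at 0.18 (84.8% identity), FRMD5 at 1.70 with GAPDH at -0.45 (85.4%) and MIA3 at 0.13 with PFDN5 at -1.82 (89.3%).

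The parent, here and above, is the coding gene with the best-aligned transcript, which need not be the source of the copy. SERBP1P6 in GHR, for example, was paired with ZNF35. Where a member held several pseudogenes, only the best-aligned one with a tested parent was used. SRPK2 (-2.35) was thus paired with RWDD4 (-1.41), though it also holds RPL36P12, whose parent RPL36 was at -2.47. Over the 162 members without a RefSeq gene that held a pseudogene with a tested parent (144 parents), 61 were lower in PSF-RIP and 12 higher. Across them the antisense value and the parent's value had a Pearson r of 0.57 and a Spearman rho of 0.56, with a median absolute gap of 0.25 and a gap above 1 in 26. Where copy and parent were 95% or more identical (54 members), r was 0.88, rho 0.80 and the median gap 0.14, with 2 gaps above 1. Of these, 41 had a tested sense row of the host gene, and against that row r was -0.07 and the gap 0.61. Where identity was under 95% (108 members), r was 0.40 and the median gap 0.38, with 24 above 1. The points come from the same 12 libraries and are genes, not replicates, and a read of such a copy may be a read of the parent's mRNA; the files hold no means to separate the 2, and this was not tested.

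**Figure D3:**
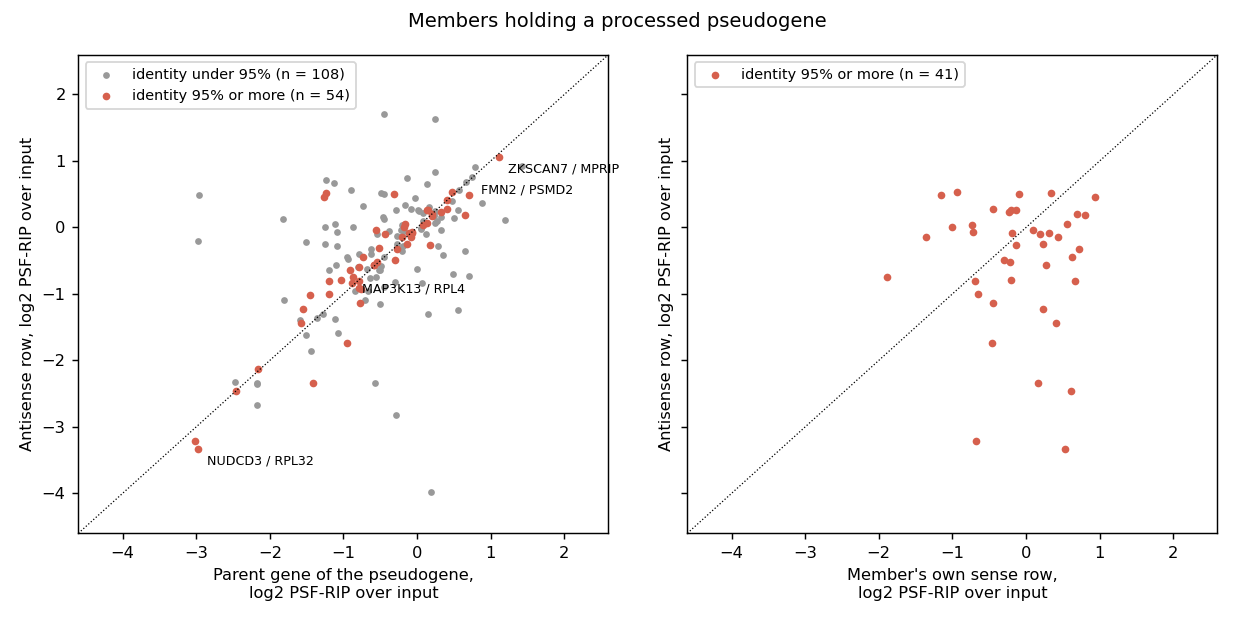
Log2 PSF-RIP over input of members holding a processed pseudogene (y axes) against the parent gene of the pseudogene (left) and against the member's own sense row (right), 1 point per member, with the line of equality dotted. On the left the points of 95% or more identity lie along the line (r of 0.88 over 54 members), and on the right they do not (r of -0.07 over 41 members).

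Members with an overlapping RefSeq gene followed that gene in the same way. For 804 members whose overlapping gene was tested, r between the 2 differences was 0.69, rho 0.69 and the median gap 0.23, against r of 0.16 and a gap of 0.55 with the member's own sense row (629 members). Both rows count reads of the same strand, so they can hold the same reads, and a correlation then follows from the counting. IQCG had 749, 927, 813, 588, 585 and 759 antisense reads in the inputs and 579, 452, 572, 348, 803 and 834 in PSF-RIP. It was at -2.59 ± 0.09 (edgeR adjusted p = 6.7e-15), and RPL35A, a ribosomal protein gene on that strand, at -2.89. SLC9B1 was at -2.49 and CISD2, a gene for an iron-sulfur protein, also at -2.49, FAM69A at -0.96 and RPL5 at -1.11, SNX22 at -0.72 and PPIB at -0.44, and SRP19 at -0.42 and REEP5 at -0.43. RUVBL1 (-0.18) and NBPF20 (0.07) did not pass the threshold. RFTN1 differed from its neighbour: with 519, 455, 661, 673, 359 and 486 antisense reads in the inputs and 231, 332, 1025, 539, 326 and 503 in PSF-RIP it was at -2.44 ± 0.16, while OXNAD1, with 636 reads against 6109 in the row, was at 0.12. FARP1 was at -2.66, and RNF113B, a single-exon gene there, had 1 read in all 12 libraries, so its row gave no value.

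At the top of the range, ANKDD1A (chr15:65204101-65251041, minus strand), an ankyrin repeat gene with 131 sense reads, had 80, 71, 20, 14, 17 and 53 antisense reads in the inputs and 1172, 984, 222, 135, 855 and 1186 in PSF-RIP. It was higher in PSF-RIP in 6 of 6 pairs by 1.89 ± 0.14 (edgeR adjusted p = 5.2e-10). SPG21, which ends upstream on the same strand, was lower, at -0.74. SPON2 was higher by 0.98 ± 0.16, WDR24, a subunit of a nutrient-sensing complex, by 1.49 ± 0.13 and ZBTB45 by 0.54 ± 0.10, each in 6 of 6 pairs, while KCNAB1 was lower by 0.95 ± 0.13 in 6 of 6.

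The largest value among members with no overlapping RefSeq gene belonged to HRAS, the small GTPase gene, at 2.64 ± 0.38 on few reads. Its antisense counts were 0, 0, 5, 6, 0 and 0 in the inputs and 4, 4, 161, 109, 1 and 6 in PSF-RIP, so it rests mainly on 22Rv1. ADRM1 (2.23, with LAMA5 of the same strand at 0.94), C9orf172 (1.90), OGFOD2 (1.74, with the GENCODE gene ABCB9 of that strand at 0.43 and PITPNM2 at 1.40), TSPAN11 (1.72), FRMD5 (1.70) and SLC34A3 (1.66) completed the 8 highest, each higher in 6 of 6 pairs with 239 to 643 reads. With an overlapping gene the highest were ANAPC2 (2.03), SLC9A3, an intestinal and renal sodium-proton exchanger gene (1.72 ± 0.15), AATK (1.63) and TMEM204 (1.60). The noncoding gene LOC100288152 opposite SLC9A3 was at 1.78 and IFT140 opposite TMEM204 at 0.80, but SSNA1 opposite ANAPC2 was lower, at -0.70.

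VPS13B and ANKRD28 were among the 4 lowest members without a RefSeq gene, at -3.98 ± 0.11 and -3.94 ± 0.26. For VPS13B, a gene for a lipid transfer protein, the antisense counts were 183, 117, 694, 416, 89 and 128 in the inputs and 36, 35, 208, 88, 49 and 48 in PSF-RIP. COX6C, a respiratory chain subunit gene whose GENCODE model reaches into that strand, was at -2.55. For ANKRD28 the GENCODE gene was BTD, at -0.18.

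A second test asked whether the antisense share of a locus' reads differed between PSF-RIP and input, using both strands of each library. Its model had no term for differences between lines in the antisense share, so such differences counted as spread. CTBP1, for example, was at -0.10 ± 2.15. It could be run for 1072 members, of which 65 had a higher antisense share in PSF-RIP and 98 a lower one, 15.2%, beside 5.16% and 10.3% (15.5%) of the 1280 coding loci tested. The counts rested on the lines included: without LNCaP they were 14 and 30, and without LTAD 7 and 29. A1BG rose most, by 3.17 ± 0.47 (edgeR adjusted p = 0.00051), where A1BG-AS1 was higher in PSF-RIP (1.17) and the sense exons lower (-1.88). COX20 (2.58, HNRNPU upstream), TMEM38B (2.38), TSACC (2.28, CCT3 opposite) and ICAM3 (2.15) followed, and in each of these the sense exons were lower in PSF-RIP. The lowest were DYNC2H1 (-5.47), PCBD2 (-4.86), ANKRD28 (-4.76), VPS13B (-4.61) and NUDCD3 (-3.88), all named above for low antisense recovery.

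The next comparison asks what androgen changed. In the inputs 4 members were higher with DHT and 4 lower, 0.512%, where the background among 2954 coding antisense rows was 0.169% higher and 0.135% lower (0.305%) and over all rows of both strands 0.625%. In PSF-RIP 17 were higher and 13 lower, 1.92%, where the background was 0.711% and 0.508% (1.22%) and over all rows 2.51%. With scaling from the antisense rows alone the PSF-RIP split was 22 higher and 10 lower (68.8% higher, in place of 56.7%). Without 22Rv1 the PSF-RIP counts were 7 and 3 and without LTAD 7 and 4, and the input counts were 2 higher and 1 lower without 22Rv1 and 2 higher without LTAD. Of the 30 members called in PSF-RIP, 27 had the same sign in all 3 lines. Among the 30, 11 had a tested overlapping gene, called in the same direction in 8, and 25 had a tested sense row, called in the same direction in 2. Of the 8 called in input, 6 had a tested sense row, of which 0 were called by edgeR or DESeq2 and 1 had an unadjusted p under 0.05.

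CTBP1 (chr4:1205228-1242908, plus strand) showed the response already known for its antisense RNA. The antisense counts were 20 and 110 in the LNCaP inputs, 0 and 0 in 22Rv1, and 4 and 56 in LTAD. In PSF-RIP they were 174 and 868, 0 and 0, and 43 and 936. Both lines with reads were higher with DHT in both assays, and no read was counted in the 4 libraries of 22Rv1. The DHT difference was 2.63 ± 0.45 in input (edgeR adjusted p = 0.026) and 3.21 ± 0.30 in PSF-RIP (adjusted p = 0.00027). The exons of CTBP1-AS rose by 2.15 ± 0.30 in PSF-RIP, and their 514 reads compare with 2211 in the row. CTBP1-AS starts just past the promoter window shown above, and its span, introns included, covers 19.0% of the row. CTBP1 mRNA was at -0.13 in PSF-RIP and did not pass the threshold. Over both assays together, the antisense share of the locus rose by 3.32 ± 0.27.

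DLX1 (chr2:172950208-172954401, minus strand), a homeobox gene, responded in all 3 lines. Its antisense counts in the inputs were 0 and 6 in LNCaP, 40 and 223 in 22Rv1, and 0 and 2 in LTAD, and in PSF-RIP 0 and 14, 253 and 938, and 2 and 31. The differences were 2.74 ± 0.36 in input (edgeR adjusted p = 0.0029) and 2.78 ± 0.27 in PSF-RIP (adjusted p = 0.00016). No GENCODE gene lies on that strand, and DLX2, its neighbour upstream, was at 0.87 and DLX1 sense at 0.63 in PSF-RIP, neither past the threshold. USP10, a deubiquitinase gene, had 4 and 15, 0 and 2, and 1 and 37 antisense reads in the inputs and 6 and 27, 1 and 5, and 11 and 142 in PSF-RIP. It rose by 3.03 in input and 2.99 in PSF-RIP, with no GENCODE gene on the strand.

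Some DHT-induced members lay beside DHT-induced genes of the same strand. Of the 8 members called in PSF-RIP with a tested gene ending upstream, that gene was called in the same direction for 1, MFSD4A. VPS26B, a retromer gene, had 1 and 15, 1 and 5, and 0 and 37 antisense reads in the inputs. Summed DHT over vehicle reads, scaled for library size, gave a ratio of 26.6 (exact 95% interval 7.04 to 225, counting error only). PSF-RIP held 1 and 57, 5 and 8, and 3 and 277 reads, and the difference was 4.83 ± 0.58 (edgeR adjusted p = 0.00063). GENCODE extends NCAPD3, a condensin gene, into that strand, and NCAPD3 exons rose by 1.93 in PSF-RIP (adjusted p = 0.031). THYN1, the RefSeq gene that ends upstream, was at 0.61 and did not pass the threshold (edgeR adjusted p = 0.10). JAM3, whose antisense row lies downstream of NCAPD3, had an antisense share higher by 2.49 with DHT. CMC2 had 7 and 65, 30 and 33, and 8 and 88 reads in the inputs and 19 and 230, 79 and 124, and 43 and 753 in PSF-RIP. It rose by 2.91 ± 0.44 in PSF-RIP, and CENPN, a centromere gene on that strand and a member of the androgen-induced list, by 2.38. C6orf201 rose by 1.07 in input and 0.83 in PSF-RIP and ECI2, a fatty acid oxidation gene, by 1.05 and 0.99. KRT8 antisense rose by 1.03 in PSF-RIP, KRT18 on the opposite strand by 1.00 and KRT8 sense by 1.14, all 3 being keratin rows of luminal cells. MFSD4A, downstream of ELK4, rose by 1.13 and ELK4 by 0.81. ZBTB16, a zinc finger repressor gene, rose on both strands, by 1.66 antisense and 1.97 sense.

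The decreases of GLP1R and PRKACB were carried by LNCaP. GLP1R (chr6:39016557-39059079, minus strand), the incretin receptor gene, had 124 and 24 antisense reads in the LNCaP inputs and 714 and 130 in LNCaP PSF-RIP, with 0 to 2 reads in every other library. It fell by 2.41 in input and by 2.24 in PSF-RIP. PRKACB (chr1:84543658-84704181, minus strand), a protein kinase A subunit gene, had 177 and 54 in the LNCaP inputs and 658 and 178 in PSF-RIP, with at most 8 reads elsewhere, and fell by 1.73 and by 1.68. Neither has a GENCODE gene on that strand, so these calls describe LNCaP.

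H2AFY, the gene of the histone variant macroH2A1, fell in all 3 lines. Reads over it numbered 200 and 97, 18 and 12, and 72 and 16 in the inputs and 1049 and 367, 114 and 22, and 740 and 174 in PSF-RIP, a difference of -1.79 ± 0.26 (edgeR adjusted p = 0.0023). C5orf66 on that strand fell by 1.98. It has an mRNA identifier in RefSeq, while GENCODE lists a long noncoding RNA and no coding gene on that strand. HDAC10 had 76 and 1, 2 and 2, and 2 and 0 reads in the inputs and 63 and 7, 20 and 5, and 89 and 3 in PSF-RIP, and fell by 3.34 in PSF-RIP. NTM (-1.47) and CAMTA1 (-1.16) also fell in PSF-RIP in 3 of 3 lines. Of the input calls, FAAP100 (-2.25) rested on 1 library, with 134 reads in the 22Rv1 vehicle input and 6 to 14 in the other inputs.

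**Figure D4:**
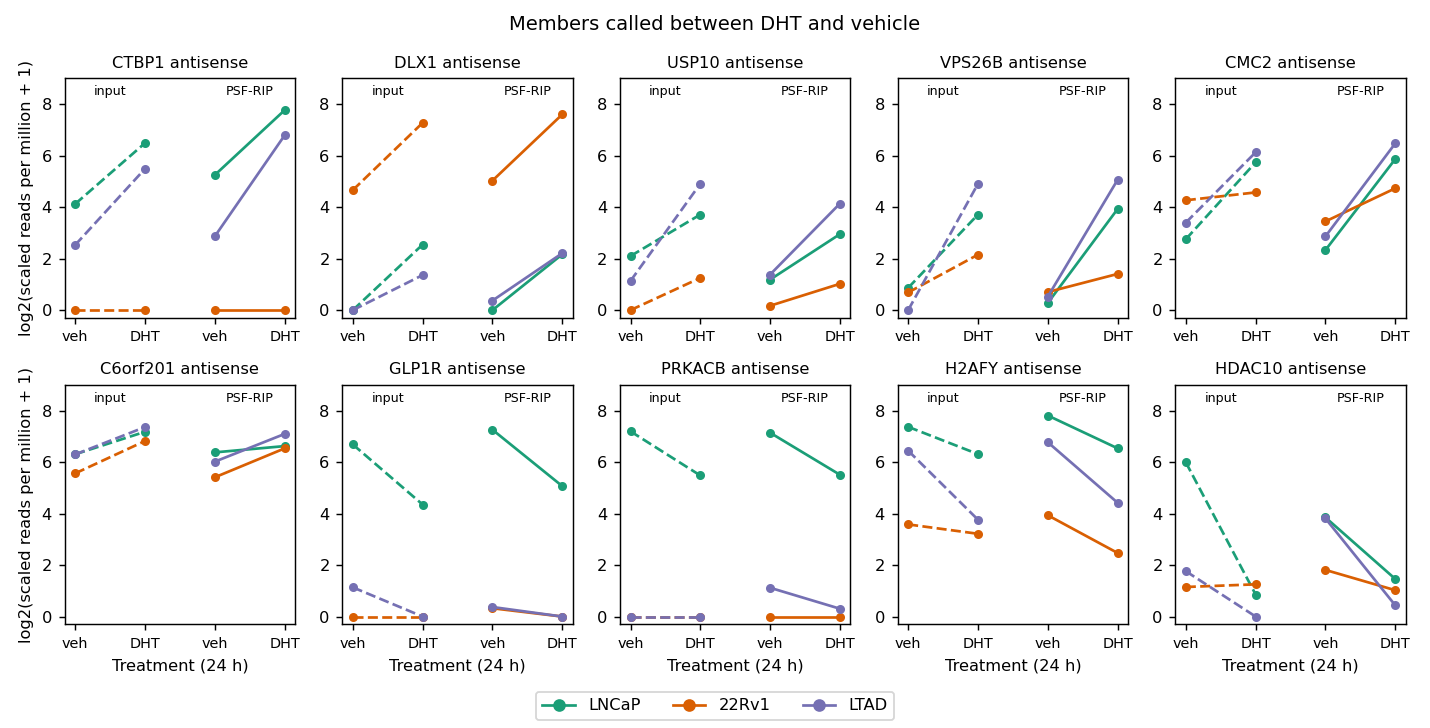
Antisense counts as scaled CPM, shown as log2 of the value plus 1, with vehicle and DHT in each line (colours) in input (dashed) and PSF-RIP (solid) for 10 members called between treatments. The lines slope up for CTBP1, DLX1, USP10, VPS26B, CMC2 and C6orf201, with CTBP1 at 0 in 22Rv1, and down in PSF-RIP for GLP1R, PRKACB, H2AFY and HDAC10, where GLP1R and PRKACB lie near 0 outside LNCaP.

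In the share of antisense reads, 20 of 1072 members were higher with DHT and 26 lower, 4.29%, beside 1.64% and 2.34% (3.98%) of all loci tested. This test pooled the assays, so the input and PSF-RIP libraries of the same line and treatment counted as separate samples. CTBP1, JAM3, MFSD4A (2.09), C5orf66 (1.80) and CMC2 (1.76) were highest. The share fell most at H2AFY (-1.79), TBC1D8 (-1.54), LRIG1 (-1.36), CAMTA1 (-1.25) and PLPP1 (-1.22). H2AFY and C5orf66 lie opposite each other, so the reads of 1 are antisense to the other. Likewise the sense exons of TBC1D8 (1.09) and PLPP1 (1.22) rose with DHT in PSF-RIP, and on the other side RPL31 and SKIV2L2 antisense, which face them, rose by 1.11 and 1.25.

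Of 40 androgen-induced genes, 37 had an antisense row and 4 were members (ELK4, KRT8, PMEPA1 and SLC45A3). In the DHT comparison 11 of their antisense rows were tested. In input 0 of 11 were called by edgeR or DESeq2, with 2 at an unadjusted p under 0.05 (median 0.41). In PSF-RIP 3 rose and 0 fell by edgeR, with 6 at an unadjusted p under 0.05 and 0 called by DESeq2 (median 0.93), beside medians of -0.12 and -0.16 over all coding antisense rows. Over all coding antisense rows 0.711% rose and 0.508% fell with DHT in PSF-RIP. The 3 list rows that rose included KRT8 and FKBP5, the latter with 81 reads and so below the limit for members. Of 52 splicing factor genes, 50 had a row, 4 were tested between PSF-RIP and input, and 2 were higher (CCNL1, the only member, by 0.59, and RBM25) by edgeR and 0 by DESeq2, beside 17.5% higher among all coding antisense rows. Of 30 genes with a described antisense RNA, 26 had a row and 6 were members. In the DHT comparison in PSF-RIP, 2 of 9 tested rose by edgeR, beside 0.711% of all coding antisense rows, and DESeq2 called 1. The 2 were CTBP1 and PRUNE2. An intron of PRUNE2 holds the prostate cancer marker RNA PCA3 on the opposite strand, and the PRUNE2 antisense row rose by 1.28. Between PSF-RIP and input, 3 of 9 were higher and 2 lower by edgeR, beside 17.5% and 21% of all coding antisense rows, and DESeq2 called 2. CTBP1 (1.23) and KCNQ1 (0.65) were among the 3 higher, and the 2 lower were BACE1 (-0.45) and ZNF516 (-1.90), the latter with 107 reads and no member.

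The last comparisons set each line against LNCaP, so they share the LNCaP libraries and are given side by side only. In input 319 members were higher in 22Rv1 and 316 lower, 40.7%, beside 16.2% and 16.3% of coding antisense rows (32.5%) and 46.2% of all rows. In PSF-RIP the counts were 508 and 380, 56.9%, beside 29% and 23.7% (52.6%) and 59.2%. In LTAD 11 were higher and 51 lower in input, 3.97%, beside 0.508% and 2.27% (2.78%) and 6.94%. In LTAD PSF-RIP 66 were higher and 235 lower, 19.3%, beside 3.05% and 11.5% (14.6%) and 18.7%. The LTAD split moved with the scaling: with factors from the antisense rows it was 22 higher and 33 lower in input, still mostly lower, and 169 higher and 119 lower in PSF-RIP, where it turned. The median moved from -0.13 to 0.01 in input and from -0.21 to 0.07 in PSF-RIP. The split also rested on single libraries, since leaving out any 1 of the 4 compared gave 3 or 4 higher and 10 to 20 lower in input, and 17 to 51 higher and 80 to 141 lower in PSF-RIP. Without the 22Rv1 vehicle library, the members higher in 22Rv1 were 190 in input and 338 in PSF-RIP, and without the LNCaP vehicle input 197.

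Some rows were read in 22Rv1 and nearly nowhere else. PAX8 (chr2:113973574-114036498, plus strand), a transcription factor gene, had 132 and 95 antisense reads in the 22Rv1 inputs and 738 and 300 in 22Rv1 PSF-RIP, against 0 in the 4 LNCaP libraries and at most 2 in any LTAD library. With 3 reads as the limit for the LNCaP group this is at least 60.1-fold higher in input and at least 235-fold in PSF-RIP, and PAX8-AS1 is the noncoding gene on that strand. CCDC144NL, with CCDC144NL-AS1 opposite, was at least 37.1-fold and at least 184-fold higher. KCNMB2, with KCNMB2-AS1, was at least 45.0-fold higher in input. The antisense row of HGF, the hepatocyte growth factor gene, had 84 and 32 reads in the 22Rv1 inputs and 880 and 198 in PSF-RIP and at most 3 elsewhere, and HGF sense exons had 604 and 118 reads in the 22Rv1 inputs and 0 in those of LNCaP. ITGA7 lies opposite METTL7B, itself higher in 22Rv1. PCDHA2, PCDHA3 and PCDHA4 of the protocadherin cluster shared most of their bases and were at least 119-fold to at least 169-fold higher in PSF-RIP.

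Other rows were read in LNCaP and LTAD but not in 22Rv1. CTBP1 antisense was at least 54.6-fold lower in 22Rv1 in input and at least 512-fold lower in PSF-RIP, while CTBP1 mRNA differed by -0.11 and 0.06. SYNJ1, a synaptic phosphatase gene, had 19, 13, 11 and 29 antisense reads in the LNCaP and LTAD inputs and 104, 72, 100 and 119 in PSF-RIP, but 0 in the 4 libraries of 22Rv1, with the sense exons at -0.18 in input and 0.31 in PSF-RIP. RDH13, a retinol dehydrogenase gene, and IRX4, a homeobox gene, were at least 27.3-fold and at least 25.6-fold lower in input, and IRX4 sense exons were low in 22Rv1 too. MXRA8 (-3.90), ANKDD1A (-2.48) and ZBTB45 (-2.01) were lower in the 22Rv1 inputs, and KCNAB1 (2.90) and WDR24 (2.83) higher. SPON2 had 1 antisense read in the 22Rv1 inputs against 298 in those of LNCaP, a ratio of 0.00267 (exact 95% interval 6.73e-05 to 0.0150), and its sense exons had 3 and 1 reads against 1659 and 1785. The sense exons of ZBTB45 differed by 0.20 and did not pass the threshold.

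PPFIA2, PRKACB and GLP1R antisense were LNCaP rows. PPFIA2 (chr12:81651754-82153109, plus strand), a liprin gene, had 572 and 418 reads in the LNCaP inputs, 9 and 2 in 22Rv1 and 7 and 10 in LTAD. In PSF-RIP it had 4519 and 3111, 16 and 0, and 53 and 52. In PSF-RIP the differences were -9.51 ± 0.37 for 22Rv1 and -6.97 ± 0.30 for LTAD. PPFIA2 sense exons were at -6.26 and -0.99 there, so in LTAD the antisense row was low while sense reads remained. PRKACB was at least 97.0-fold lower in 22Rv1 and at least 66.2-fold lower in LTAD in input. CNBD1 antisense, with 65 and 36 reads in the LNCaP inputs, was at least 28.9-fold lower in LTAD.

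Among rows higher in LTAD than in LNCaP, ADGRD1, an adhesion receptor gene, differed by 1.47 in input and 1.71 in PSF-RIP, and C17orf49 (2.02), RASA3 (2.52) and ARRDC1 (1.74) in PSF-RIP. In input AGAP1 (1.73), EME1 (1.68) and TSHR (2.40) were higher. PLOD3, a collagen lysine hydroxylase gene, was lower by 5.24 in PSF-RIP, although the neighbour ZNHIT1 (0.04) and the sense exons of PLOD3 (-0.15) did not pass the threshold. MRPL43 antisense had 3 reads in LTAD PSF-RIP against 48 in LNCaP, a ratio of 0.0354 (exact 95% interval 0.00705 to 0.110), and SEMA4G on that strand was at -4.75. BAHCC1 did not repeat between assays: it had 365 and 111 reads in the LNCaP inputs and 0 or 1 in the other inputs, but 1 read in the LNCaP vehicle PSF-RIP library, 371 in the DHT one, and 61 to 163 in the other PSF-RIP libraries.

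**Figure D5:**
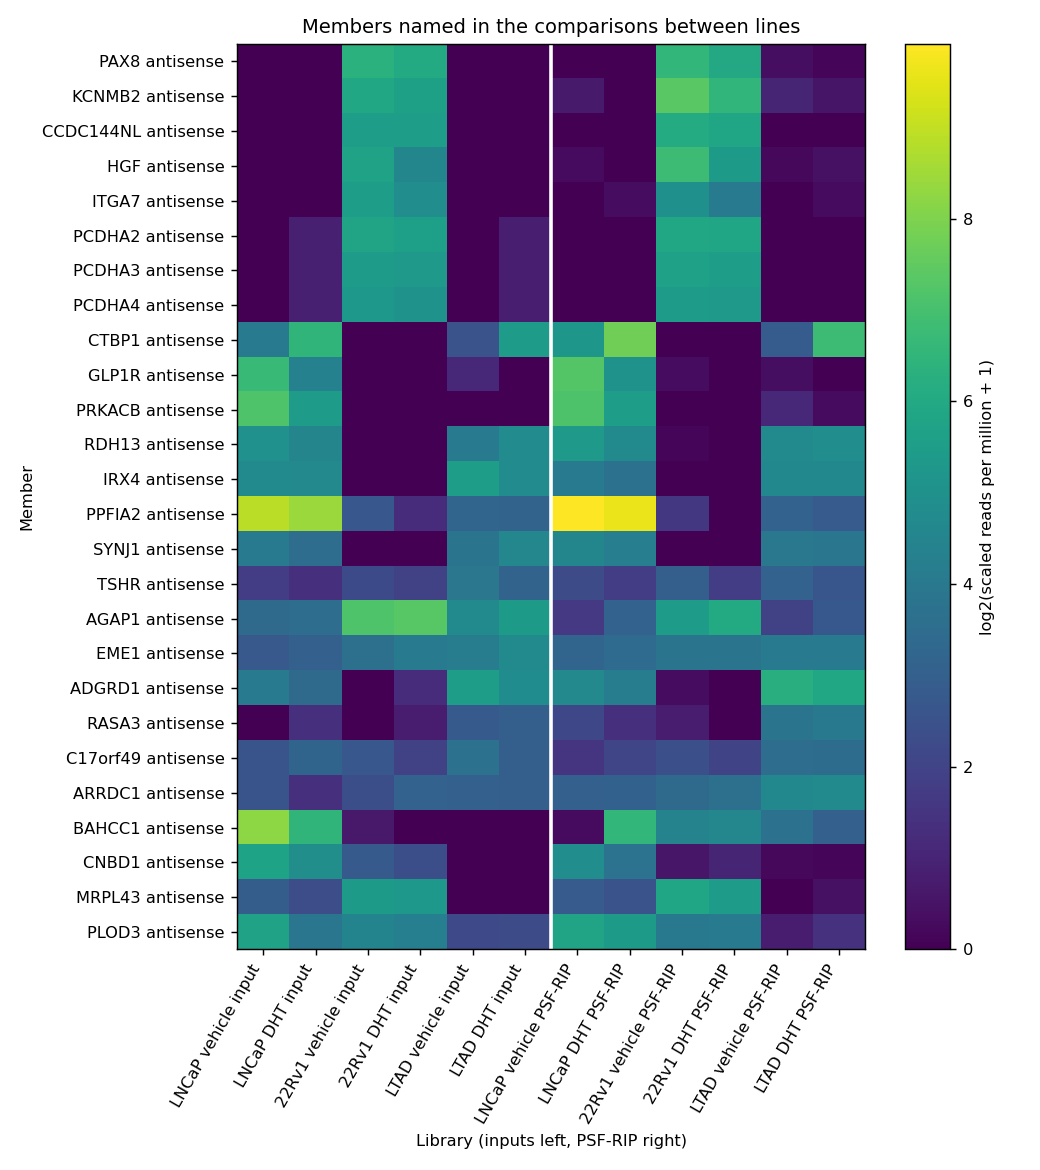
Antisense counts as scaled CPM, shown as log2 of the value plus 1, in each library for the members named in the comparisons between lines, with inputs left of the white line and PSF-RIP right of it. PAX8 to PCDHA4 are bright in 22Rv1 columns, and GLP1R, PRKACB and PPFIA2 in LNCaP columns, in both assays, while BAHCC1 differs between the assays.

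A readout that the choice did not use was PSF-CLIP in LNCaP, in which RNA is crosslinked to the protein by ultraviolet light before recovery. The deposited peak lists carry no strand, so a peak in a row can belong to either strand. Of the 1561 members, 693 held a peak in the first vehicle list (44.4%), 702 in the first DHT list (45.0%), 234 in the second vehicle list (15.0%) and 487 in the second DHT list (31.2%). In the other coding rows the shares were 35.9%, 34.8%, 11.3% and 24.7%. Members are longer, and per megabase they held 16.5, 16.2 and 7.46 peaks in the first vehicle, first DHT and second DHT lists against 14.2, 13.6 and 6.22 in the other rows. The lists differ in length, from 7691 to 24242 peaks, so no change between treatments is read from them, and the difference between members and other rows was not tested. The CTBP1 locus held 2 peaks in each of the first lists and 1 in each of the second.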

How the data were processed

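Reads were mapped to hg19 (GRCh37) with TopHat2 2.1.0 and Bowtie2 2.2.6, per the submitters' processing notes. The deposited tables hold read counts per transcript row and strand, per the file headers, and the CLIP lists hold peak positions with a score per peak that is the authors' own. Whether a read in 2 overlapping rows was counted in both is not given in the sources used here. Members and gene lists were chosen with earlier results of these data known. Counts were fitted with edgeR 4.0.16 (quasi-likelihood, R 4.3.3) after its expression filter, with TMM factors from sense exon rows, a prior count of 2 and Benjamini-Hochberg adjustment over all rows of both strands. All 1561 members passed the filter in the comparisons of level and 1072 in those of antisense share. PSF-RIP was compared with input over 6 libraries each, with line and treatment as terms and no pairing of libraries. DHT (3 libraries against 3 in each assay) and lines (2 against 2) were compared in 1 model with a line and a treatment term within each assay. The antisense share with DHT was instead tested over input and PSF-RIP libraries together, with terms for assay and line in the share. The test of the share between PSF-RIP and input had no line or treatment term in the share. DESeq2 1.42.0, limma 3.58.1, other scalings, no filter and leaving out lines or libraries were alternatives. The fits were tested on simulated data. Most named members were taken by fixed ranks of reads and of log2 difference in each comparison, plus CTBP1 and rows of the gene lists. Further members with a pseudogene, such as ZKSCAN7, FMN2 and SMOC1, were chosen as examples of rows near to or far from their parents. Gene overlaps used coordinates of the deposited RefSeq rows and of GENCODE, and CLIP peaks were counted with bedtools 2.31.1. Copies were aligned with blastn 2.17.0 (100 or more bases, and 80% identity for the mitochondrial genome). Where a group held 0 reads a floor of 3 reads over the group was used, and intervals and floors cover counting error only. A second LNCaP set of 4 samples, whose 12 value columns could not be matched to samples, was not used. CLIP lists carry no strand, so the planned count on the antisense strand was made over both strands. Some items are not reported here.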

Additional observations from a re-analysis of the deposited data

Results flagged for a closer look

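Between-line differences in PSF recovery were seen at 2 members, where both pairs of libraries of 1 line moved one way and both pairs of another line the other way. These differences were not tested. For MIA3, the mean log2 PSF-RIP over input of LNCaP exceeded that of 22Rv1 by 0.55, and 22Rv1 against LTAD differed by -0.76. For RUVBL1, LNCaP against 22Rv1 differed by -0.53 and 22Rv1 against LTAD by 0.33. At MAP3K13 the 22Rv1 DHT pair, at -0.95, lay far from the other 5 of the 6 pairs. Chance places a sample this far out in about 1 of 20 such groups.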

How the results depend on the processing

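DESeq2 in place of edgeR gave 1 member lower with DHT in input, 7 higher and 3 lower with DHT in PSF-RIP, 315 higher in 22Rv1 PSF-RIP, 32 lower in LTAD input, and 19 higher and 68 lower in LTAD PSF-RIP. Fitting the antisense rows alone gave 8 lower with DHT in input. No filter on low counts gave 15 higher and 12 lower with DHT in input, and 29 and 30 in PSF-RIP. Scaling from the antisense rows gave 22 higher and 33 lower in LTAD input and 169 and 119 in LTAD PSF-RIP. limma on the antisense share with DHT gave 9 higher and 10 lower. Asking that the overlapping gene cover at least 50% of the row left 133 members with one, and keeping CLIP peaks of the upper 50% of scores left 107 and 291 members in the second vehicle and DHT lists. In each of these the cause was not tested. With the line and treatment pair as a replicate block, 400 members were higher and 344 lower in PSF-RIP.

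Leaving out 1 line gave 231 to 327 higher and 258 to 284 lower in PSF-RIP, 2 to 4 higher and 1 to 6 lower with DHT in input, and 7 to 17 and 3 to 14 with DHT in PSF-RIP. For the antisense share it gave 7 to 74 higher and 29 to 122 lower in PSF-RIP, and 14 to 23 and 19 to 24 with DHT. Leaving out 1 library gave, for 22Rv1, 190 to 224 higher and 215 to 236 lower in input and 338 to 434 and 296 to 340 in PSF-RIP. For LTAD it gave 3 to 4 higher and 10 to 20 lower in input and 17 to 51 and 80 to 141 in PSF-RIP. Of 790 values of named members under alternatives, 728 kept direction and side of the threshold, 60 lost the threshold, and RUVBL1 passed it without 22Rv1 (-0.33). MIA3, which did not pass the threshold (0.13), ran from -0.0302 without LTAD, a change of sign (edgeR adjusted p = 0.861), to 0.355 without 22Rv1. Inputs are the shallower libraries and limit what can be seen between treatments.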
